A study of Mus musculus with 8 samples.

Results

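The genes described here are 10 markers of alternatively activated and of Folr2+ resident macrophages: Retnla, Chil3, Mrc1, Folr2, Lyve1, Clec10a, Mgl2, Pdcd1lg2, Il4ra and Klf4. They were found on the arrays by the RefSeq transcript that the scanner files give for each probe, which yielded 11 of 39429 gene probes, 2 for Il4ra and 1 for each of the other 9 genes. All 10 are among the 14491 named genes that were tested, and every one of the 11 probes was well above background on all 8 arrays. The study measured RNA of macrophages isolated from LPS-treated mice of a series on cardiac repair, with 4 arrays of wild-type mice (WT 1 to 4) and 4 of EP2 knockout mice (EP2KO 1 to 4). EP2, encoded by Ptger2, is a receptor for prostaglandin E2 that raises cAMP, and LPS is a bacterial endotoxin that activates macrophages through TLR4. The groups share the LPS treatment, and the labels give all mice as male. Age, strain, the tissue the cells came from, the dose and time of LPS and the design of the knockout allele are not stated. Nor do the labels say that each replicate was a different mouse, so a p-value here speaks to the spread between these samples alone, which may be technical.

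Alternative activation is the state that macrophages enter under the cytokines IL-4 and IL-13, which bind receptors containing Il4ra and act through the transcription factor STAT6, with Klf4 as a partner. Its usual markers are secreted proteins such as Retnla and Chil3, lectin receptors such as Mrc1, Clec10a and Mgl2, and the checkpoint ligand Pdcd1lg2. Folr2 and Lyve1 mark a population of long-lived, tissue-resident macrophages near vessels, many of which also carry Mrc1, and LPS generally drives macrophages to another, inflammatory state.

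Facts of the arrays bear on all results. Slide 1 carried replicates 1 and 2 of both genotypes and slide 2 replicates 3 and 4, and the slides had separate scan days. They were parted by the first principal component (61.0% of the variance). Within a slide, position went with genotype (WT in 1 and 2, EP2KO in 3 and 4), and these cannot be told apart. Each slide held 2 arrays per genotype, so few that groups often do not overlap within a slide by chance. The share of all features with no overlap within a slide was not counted. The targeted gene Ptger2 was lower on every EP2KO array, at 0.971 to 1.21 times the 75th percentile of its array in WT and 0.240 to 0.390 in EP2KO (log2 difference -1.76 ± 0.18, limma adjusted p = 0.072, which became 0.0412 when slides formed blocks and 0.225 when replicate numbers did). No source names the exons removed, so what this probe checks is limited to the RNA it binds. Against the label male, both Xist probes were well above background on all 8 arrays, and of 5 probes for 4 Y-linked genes 1 was so on 1 array. Of 12 macrophage markers, 11 were measured, among them Adgre1, Csf1r, Itgam and Mertk, with a median difference of 0.05, and Cd68 had no probe that the gene table names. Their summed relative signal was 403 to 606 in WT and 478 to 657 in EP2KO. Within slides these sums did not overlap, in opposite directions. On slide 1 they were 526 and 606 in WT against 478 and 499 in EP2KO (median difference -0.19). On slide 2 they were 498 and 403 in WT against 574 and 657 in EP2KO (median difference 0.41).

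Promoters of 8 of the 10 genes are in RefSeq's table for build GRCm38.p6, and the 250 bases before the annotated start were searched on both strands for the letters of 7 motifs. These were TTC and GAA with any 4 bases between them (the spacing preferred by STAT6), TTCNNNGAA (the spacing of other STAT factors), the cAMP response element TGACGTCA, GAGGAAGT (PU.1), GGGTGTGG (KLF), TTGCGCAA (C/EBP) and TATAAA (the TATA box). Over all 32851 promoters of this length in the table, the STAT6 form was present in 5.85%, TTCNNNGAA in 7.02%, TGACGTCA in 1.55%, GAGGAAGT in 2.44%, GGGTGTGG in 3.2%, TTGCGCAA in 0.164% and TATAAA in 12.4%. The genes shown are Folr2, which had the largest genotype difference of the 10, at both of its annotated starts; Retnla and Pdcd1lg2, which hold the STAT6 letters; and Chil3 with its near copy Chil4, whose signals had the same order over the arrays. Each line runs 5′ to 3′ on the gene's strand, and capitals mark the matched letters.
Folr2, chr7:101857191-101857440, GRCm38.p6, minus strand: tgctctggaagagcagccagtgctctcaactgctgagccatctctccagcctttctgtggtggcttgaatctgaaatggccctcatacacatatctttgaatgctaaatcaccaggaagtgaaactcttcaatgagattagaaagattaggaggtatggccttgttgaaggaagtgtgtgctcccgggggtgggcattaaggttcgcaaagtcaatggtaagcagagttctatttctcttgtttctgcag
Folr2, chr7:101845332-101845581, GRCm38.p6, minus strand: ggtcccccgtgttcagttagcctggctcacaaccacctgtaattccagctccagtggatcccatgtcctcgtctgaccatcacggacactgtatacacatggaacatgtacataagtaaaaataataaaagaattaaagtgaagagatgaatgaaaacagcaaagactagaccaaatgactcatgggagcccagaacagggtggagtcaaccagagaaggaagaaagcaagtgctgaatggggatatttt
Retnla, chr16:48842359-48842608, GRCm38.p6, plus strand: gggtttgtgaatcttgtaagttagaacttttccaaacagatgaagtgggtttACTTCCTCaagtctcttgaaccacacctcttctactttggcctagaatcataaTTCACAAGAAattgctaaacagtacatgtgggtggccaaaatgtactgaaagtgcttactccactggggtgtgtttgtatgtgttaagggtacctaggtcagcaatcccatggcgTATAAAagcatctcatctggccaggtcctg
Pdcd1lg2, chr19:29410669-29410918, GRCm38.p6, plus strand: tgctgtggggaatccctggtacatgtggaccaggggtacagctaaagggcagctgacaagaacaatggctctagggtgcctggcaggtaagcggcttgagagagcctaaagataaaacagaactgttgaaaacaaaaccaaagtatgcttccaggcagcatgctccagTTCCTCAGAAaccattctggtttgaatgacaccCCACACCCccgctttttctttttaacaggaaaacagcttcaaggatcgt
Chil3, chr3:106167565-106167814, GRCm38.p6, minus strand: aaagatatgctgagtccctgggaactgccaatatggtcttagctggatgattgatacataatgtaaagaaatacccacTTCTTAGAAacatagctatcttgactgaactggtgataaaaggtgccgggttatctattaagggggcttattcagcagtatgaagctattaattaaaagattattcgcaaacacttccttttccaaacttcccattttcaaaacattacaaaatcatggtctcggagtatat
Chil4, chr3:106219480-106219729, GRCm38.p6, minus strand: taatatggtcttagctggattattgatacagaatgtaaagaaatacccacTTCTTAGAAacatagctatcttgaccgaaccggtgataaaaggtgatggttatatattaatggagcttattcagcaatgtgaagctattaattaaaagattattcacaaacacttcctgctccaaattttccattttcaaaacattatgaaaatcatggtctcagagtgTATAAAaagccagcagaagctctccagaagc
In Retnla the STAT6 letters began 145 bases before the start, a PU.1 match 198 bases and a TATA match 30 bases before it. Pdcd1lg2 had the STAT6 letters 82 bases and a KLF match 49 bases before the start. Neither Folr2 window, nor those of Mrc1, Mgl2, Il4ra and Klf4, held any of the 7 motifs. The Chil3 and Chil4 windows were identical at 201 of 279 aligned columns (72.0%), and both held the same 9 bases of the STAT form, 172 bases before the start in Chil3 and 200 bases before it in Chil4. No 2 matches overlapped, and a match is a description of the letters, not of a bound factor.

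In the comparison of EP2KO with WT macrophages, Folr2 was the gene of the 10 with the largest difference. Its signal was about 1.91-fold lower without EP2, and all 4 EP2KO arrays lay below all 4 WT arrays. Over 20705 features with complete values, 0.913% had every EP2KO array below and 0.468% every one above the WT arrays, 1.38% in all, beside 1 of 10 genes here. The other 9 genes had overlapping groups. None of the 10 passed the test across all features (limma, Benjamini-Hochberg adjusted p under 0.05), either without a slide term or with the slide as a block. Among all 20736 features tested, 0.00965% were called without a slide term (2 probes with no gene name, both higher, A_55_P1985422 and A_55_P2034481) and 0.0193% with the slide as a block, so a count of 0 of 10 is near the background. Of the 10 genes, 7 had a lower and 3 a higher mean in EP2KO. Their median log2 difference was -0.26, beside -0.02 over all features; it was -0.18 on slide 1 and -0.29 on slide 2, where all features had -0.08 and 0.04.

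Folr2 encodes folate receptor beta, a surface receptor for folate. Relative to each array's 75th percentile, its signal was 25.6, 38.2, 28.1 and 19.7 in WT 1 to 4, against 17.1, 17.0, 11.9 and 11.8 in EP2KO 1 to 4. The highest EP2KO array stayed under the lowest WT array, and on each slide both EP2KO values were below both WT values. The mean was 27.9 ± 7.72 in WT and 14.4 ± 3.01 in EP2KO (SD, n = 4). The log2 difference was -0.93 ± 0.24 (SE; -0.88 on slide 1 and -0.99 on slide 2, 1.83-fold and 1.99-fold lower). By exact permutation (two-sided, all 70 arrangements) p was 0.0286, which is the smallest this design allows. In all, 10 such tests were made, 1 per gene, and this p is not adjusted for them. The 10 genes were also chosen with earlier results of these data known, so neither this p nor the ranks below rest on an independent choice. In the limma fits the adjusted p of Folr2 was 1.00 without a slide term, 0.181 when slides formed blocks and 0.491 when replicate numbers did. Its rank by unadjusted p was 62 of 20736 features without a slide term and 86 with the slide as a block. With the background corrected by normexp the difference was -0.86, the groups overlapped, and the exact permutation p was 0.0857. Without any 1 of the 4 EP2KO arrays the groups stayed apart, with differences of -1.02 to -0.84, but the exact permutation p was 0.0571. Without any 1 of the 4 WT arrays that p was 0.0286. These tests have 35 arrangements each, so their p moves in coarse steps. In bulk RNA, fewer cells of a type and less RNA per cell cannot be told apart.

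**Figure D1:**
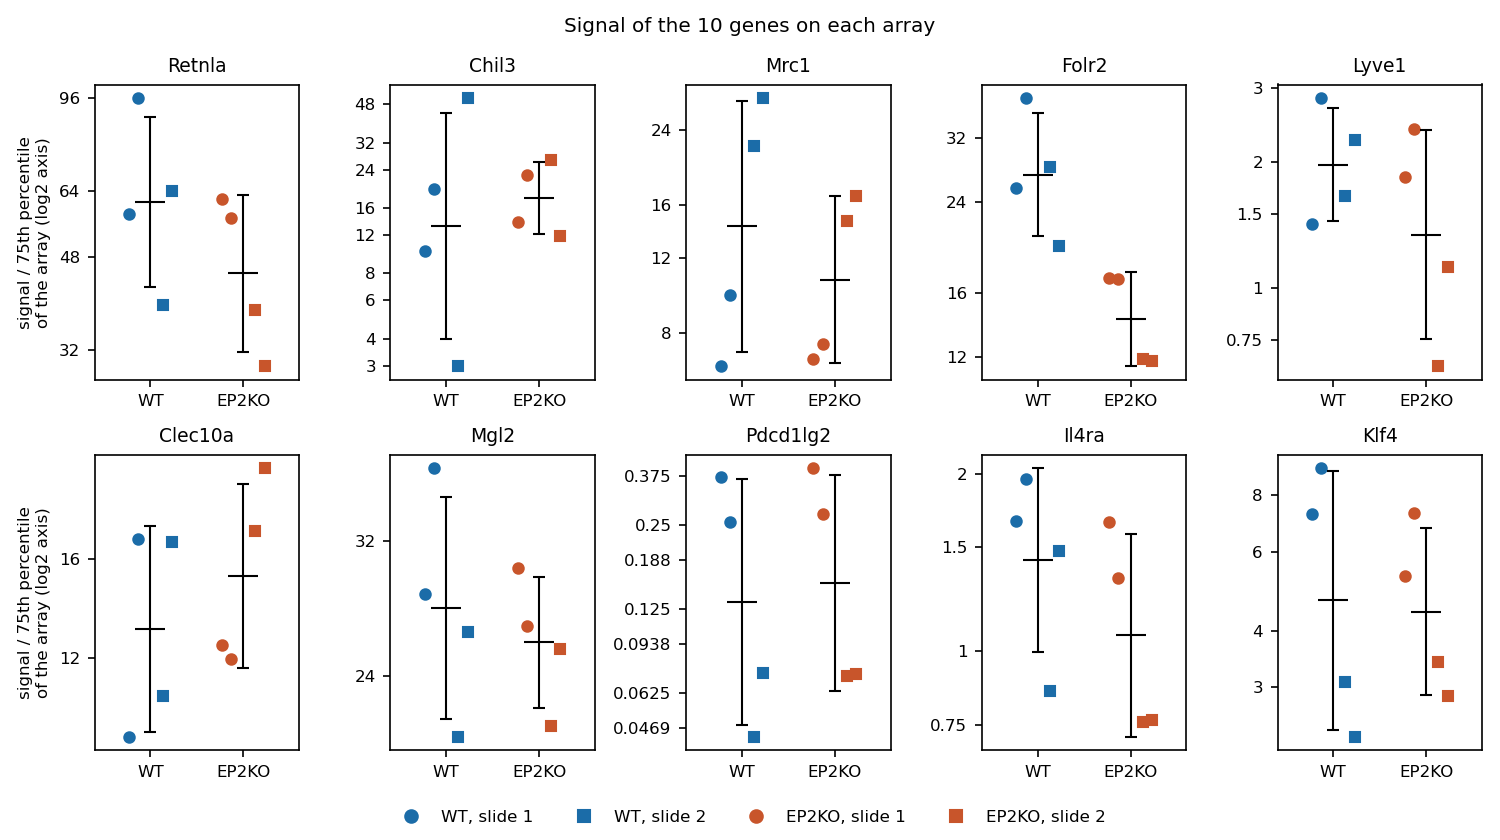
Signal of the 10 genes on each of the 8 arrays, relative to the array's 75th percentile, on log2 axes whose range differs from gene to gene. Circles are slide 1 and squares slide 2, blue WT and orange EP2KO; black bars are the mean and SD of the log2 values (n = 4). For Folr2 all 4 EP2KO arrays lie at 11.8 to 17.1, below the WT arrays at 19.7 to 38.2, while Mrc1, Mgl2, Pdcd1lg2 and Klf4 part by slide. Over all features, the slide 2 arrays lay all above those of slide 1 in 23.9% and all below in 19.6%, so 4 of 10 is near the background.

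Lyve1, a hyaluronan receptor shared by resident macrophages and lymphatic endothelium, did not follow Folr2 on slide 1. Its relative signal was 1.42, 2.84, 1.66 and 2.25 in WT 1 to 4, against 1.83, 2.39, 0.649 and 1.12 in EP2KO 1 to 4. The groups overlapped on slide 1, and both EP2KO values were below both WT values on slide 2. With 2 arrays per genotype, such an order on 1 slide says little by itself. The log2 difference was -0.56 ± 0.43 (SE), with 0.06 on slide 1 and -1.18 on slide 2 (2.26-fold lower). The slides' difference in this contrast was -1.24 ± 0.58 with an interaction adjusted p of 0.285, where 0.0145% of features were called. Of 12 endothelial markers 5 were measured, with a summed relative signal of 3.76 to 30.2 in WT and 7.46 to 36.0 in EP2KO; the lymphatic markers Prox1 and Reln were well above background on 1 array each, Mmrn1 on 3 and Flt4 on 5, and Tek on 0. On slide 1 the endothelial sums were 7.57 and 3.76 in WT against 7.46 and 9.99 in EP2KO. On slide 2 they were 30.2 and 28.1 in WT against 36.0 and 31.1 in EP2KO. The part of endothelial RNA in the Lyve1 signal was not tested.

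Of the lectin receptors, Mrc1, the mannose receptor CD206, had lower EP2KO values on slide 2. Its relative signal was 6.68, 9.81, 22.1 and 28.6 in WT 1 to 4, against 6.96, 7.55, 14.7 and 16.8 in EP2KO 1 to 4. The order of the arrays was set by slide first, with all 4 slide 2 arrays above all slide 1 arrays. The genotype difference was -0.42 ± 0.18 (SE, slide as a block; adjusted p = 0.689), with -0.16 on slide 1 and -0.68 on slide 2. Clec10a and Mgl2 encode the galactose-type lectins MGL1 and MGL2, and neither passed the test. Clec10a was at 9.55, 16.9, 10.74 and 16.8 in WT 1 to 4, against 12.5, 12.0, 17.4 and 20.8 in EP2KO 1 to 4, a difference of 0.22 with a 95% interval of -0.35 to 0.79 (slide as a block). The groups overlapped on slide 1 (-0.06), and both EP2KO values were above both WT values on slide 2 (0.50). Mgl2 was at 21.1 to 37.3 in WT and 21.6 to 30.2 in EP2KO, and its difference of -0.11 had the narrowest interval of the 10 genes, -0.43 to 0.22.

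The secreted markers had means in opposite directions, neither past the test. Retnla, the resistin-like protein RELM alpha, was at 57.8, 96.0, 39.0 and 64.02 on WT 1 to 4 and at 61.7, 57.0, 38.1 and 29.8 on EP2KO 1 to 4. The groups overlapped, and the lowest array was EP2KO 4 and the highest WT 2. The log2 difference was -0.45 ± 0.22 (SE, slide as a block; adjusted p = 0.761), -0.33 on slide 1 and -0.57 on slide 2. Chil3, the chitinase-like protein Ym1, ran over the widest range of the 10 genes, 17.3-fold from the lowest to the highest array. It was at 10.2, 19.5, 2.98 and 51.4 on WT 1 to 4 and at 13.8, 22.7, 26.6 and 11.9 on EP2KO 1 to 4. Both extremes were WT arrays of slide 2, and all EP2KO values lay between them. The difference of 0.43 had an interval of -1.55 to 2.41 (slide as a block). In that fit it was -0.41 without WT 3 and 1.23 without WT 4, and without a slide term -0.29 and 1.08.

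The signal of Chil3 ran in parallel with that of its near copy Chil4, and whether the probes tell the genes apart was not tested. Chil4 was at 0.0474, 0.0784, 0.0333 and 0.265 on WT 1 to 4 and at 0.0561, 0.0991, 0.124 and 0.0549 on EP2KO 1 to 4. The 8 arrays had the same order for both genes, from WT 3 at the bottom to WT 4 at the top. The genotype difference of Chil4 was 0.05 ± 0.64 (SE). Of other relatives, added after the values of the 10 genes had been seen, Retnlg, a neutrophil protein of the Retnla family, differed by -0.03 ± 0.88, and Retnlb, well above background on 2 of 4 EP2KO arrays, by -0.28 ± 0.36. Folr1, the folate receptor alpha, differed by -0.47 ± 0.79, with 1.14 on slide 1 and -2.09 on slide 2. Its groups overlapped, at 0.0660 to 0.441 in WT and 0.0655 to 0.475 in EP2KO. The relatives with the largest genotype differences were Chil1, a chitinase-like protein (-1.67 ± 0.41, SE with the slide as a block; adjusted p = 0.315), Pdcd1, the receptor PD-1 to which PD-L2 binds (-1.29 ± 0.28; adjusted p = 0.243), and Il21r, a receptor chain related to Il4ra (-1.08 ± 0.21; adjusted p = 0.223). Without a slide term, the fit used for the other relatives here, the SE was 1.11 for Chil1, 0.86 for Pdcd1 and 0.73 for Il21r. All 3 had lower EP2KO means on both slides, from -0.60 to -0.97 on slide 1 and from -1.56 to -2.37 on slide 2. None passed the limma test in either fit. Chil1 was well above background on 3 of 4 EP2KO arrays.

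**Figure D2:**
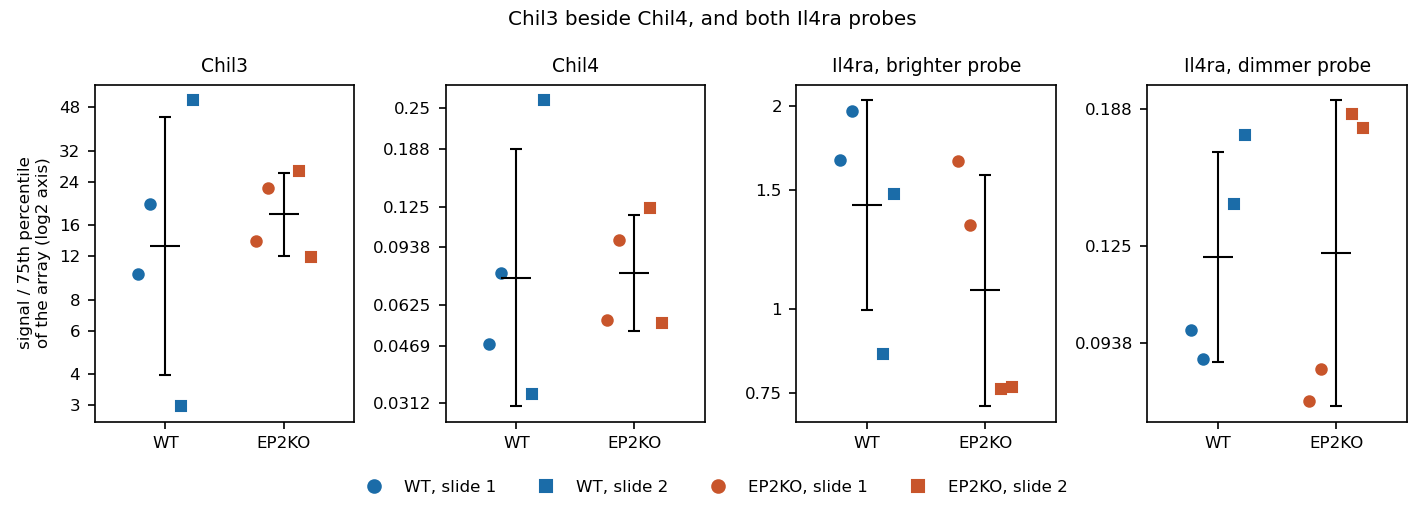
Relative signal of Chil3 beside Chil4, and of both Il4ra probes, on the 8 arrays (log2 axes; symbols, mean and SD as in the plot of the 10 genes). WT 4 is highest and WT 3 lowest for both Chil3 and Chil4; the brighter Il4ra probe has a lower mean and the dimmer one higher values on slide 2.

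The receptor, the regulator and the checkpoint ligand did not pass the test by genotype. Il4ra, the signalling chain of the IL-4 and IL-13 receptors, was at 1.66, 1.96, 0.857 and 1.48 on WT 1 to 4 and at 1.66, 1.33, 0.759 and 0.764 on EP2KO 1 to 4 by its brighter probe. The groups overlapped, with WT 1 and EP2KO 1 equal to 3 digits, and on slide 2 both EP2KO values were below both WT values. The difference was -0.42 ± 0.19 (SE, slide as a block; adjusted p = 0.701), and 0.02 by the dimmer probe. Klf4, a zinc finger factor of the STAT6 response, was at 2.32 to 9.18 in WT and 2.86 to 7.33 in EP2KO, with -0.39 on slide 1 and 0.22 on slide 2. Pdcd1lg2, which encodes PD-L2, was at 0.0434 to 0.371 in WT and 0.0719 to 0.399 in EP2KO, with a difference of 0.22 and an interval of -0.30 to 0.75 (slide as a block). Cd274, which encodes the related ligand PD-L1, differed by 0.50 ± 0.45 (SE) without a slide term. These intervals leave room for differences of either sign.

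**Figure D3:**
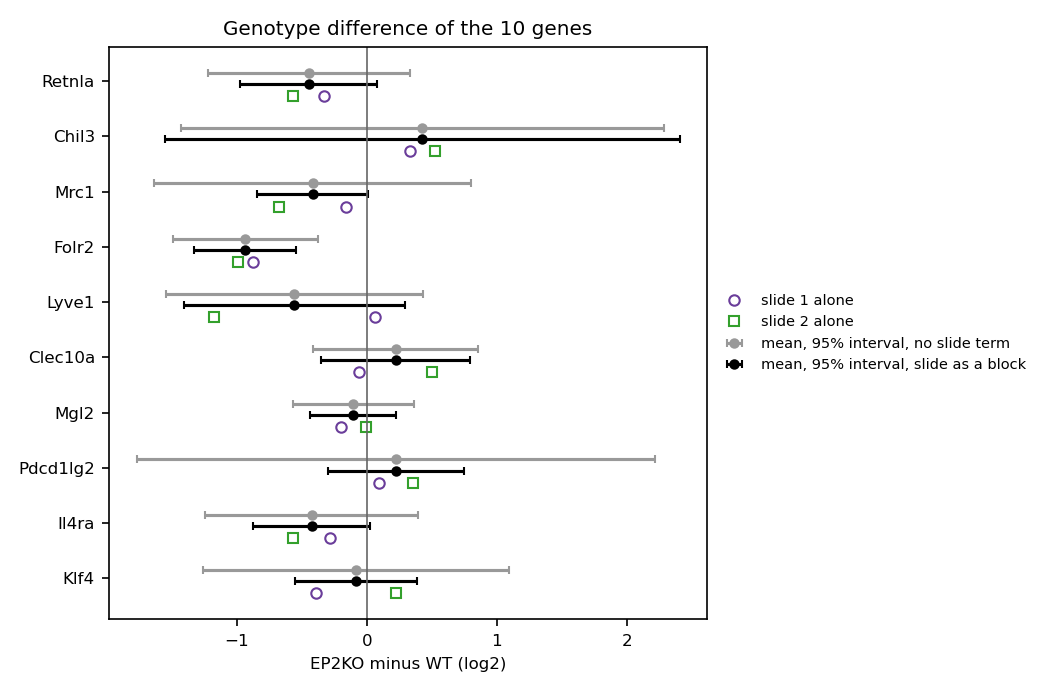
Difference EP2KO minus WT (log2) for each of the 10 genes, with the mean and 95% interval of the fit without a slide term (grey) and with the slide as a block (black), and the difference within slide 1 (circles) and slide 2 (squares). Folr2 is at -0.88 and -0.99 on the slides, and Lyve1 at 0.06 and -1.18.

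Between the slides, with genotype in the model, 5 of the 10 genes differed at an adjusted p under 0.05. Mrc1 was higher on slide 2, and Pdcd1lg2, Klf4 and Retnla were lower there; Il4ra was called through its brighter probe, and its dimmer probe went the other way. Over all features 43.5% were called, 23.9% higher and 19.6% lower on slide 2, so 5 of 10 is near the background share. In 8 of the 10 genes the slide difference was larger than the genotype difference; Folr2 and Chil3 were the exceptions. Slide, scan day and replicate number cannot be told apart in this comparison.

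Mrc1 averaged 7.75 on slide 1 and 20.5 on slide 2, 2.59-fold higher (log2 1.37 ± 0.18, limma adjusted p = 0.00127), with no overlap of the slides. Pdcd1lg2 was at 0.257 to 0.399 on slide 1 and 0.0434 to 0.0738 on slide 2, 4.99-fold lower (log2 -2.32 ± 0.22, limma adjusted p = 0.000376). With normexp its difference was -1.32 (adjusted p = 0.0649). Klf4 was at 5.31 to 9.18 on slide 1 and 2.32 to 3.41 on slide 2, 2.47-fold lower (log2 -1.30 ± 0.20, limma adjusted p = 0.00221). Klf2, a relative of Klf4, was lower on slide 2 as well, by -1.58 ± 0.26 (limma adjusted p = 0.00327). Retnla was 1.62-fold lower on slide 2 (log2 -0.70 ± 0.22, limma adjusted p = 0.041), a call that was lost when WT 2, WT 3 or any EP2KO array was left out (adjusted p 0.0739 to 0.107), with quantile scaling (0.127) and with no filter (0.0729).

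Both Il4ra probes passed between the slides, in opposite directions. The brighter one was lower on slide 2 by -0.82 ± 0.19 (limma adjusted p = 0.0121) and the dimmer one higher by 0.94 ± 0.12 (limma adjusted p = 0.00126), in a fit of 25172 probes of which 43.3% were called. The dimmer probe was at 0.079 to 0.0976 on slide 1 and 0.141 to 0.185 on slide 2. The scanner files give both probes the same transcript, so no slide direction can be given for the gene; with the mean of the probes the difference was 0.06.

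**Figure D4:**
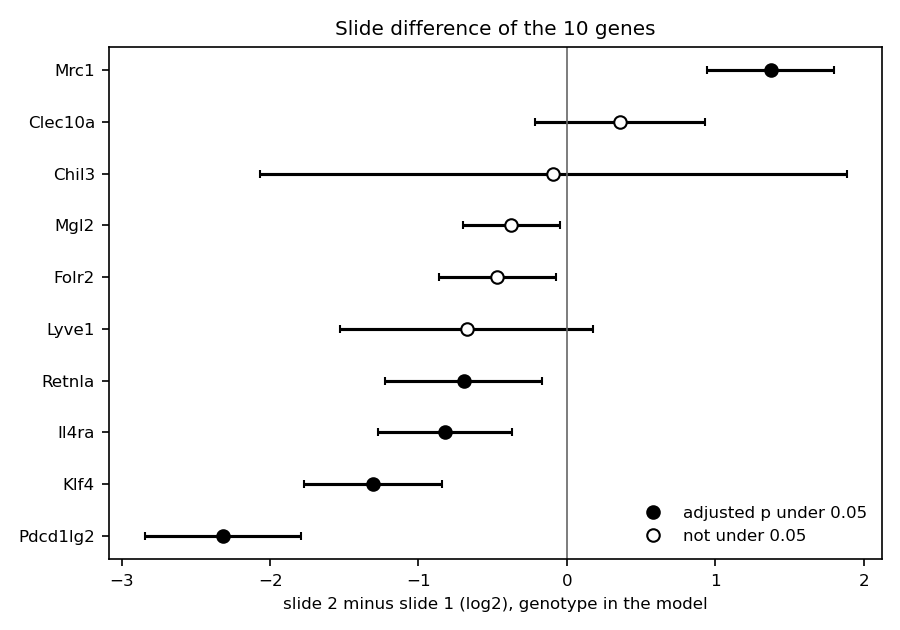
Difference of slide 2 minus slide 1 (log2, mean and 95% interval, genotype in the model) for the 10 genes, in order of size; filled points passed at an adjusted p under 0.05. Pdcd1lg2 at -2.32 and Mrc1 at 1.37 are the ends of the order, and Chil3 at -0.09 has the widest interval.

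The pathway around the receptor showed no called gene by genotype. Of 25 listed genes of IL-4 and STAT6 signalling 23 were measured, 7 higher and 16 lower in EP2KO, with 0 called in either fit and a median of -0.04. Without a slide term the smallest unadjusted p values were those of Il13ra1, the second chain of the type II receptor (-0.30 ± 0.22), and of Irs2, an adaptor of the receptor (0.41 ± 0.33). Both had overlapping groups, Il13ra1 at 0.142 to 0.282 in WT and 0.142 to 0.185 in EP2KO. With the slide as a block Irf4, a transcription factor induced by IL-4, had the smallest (-0.32 ± 0.16, limma adjusted p = 0.743). Of the cytokines themselves, Il13 was well above background on 4 arrays and was not tested. Between the slides 2 of these 23 genes were called higher and 11 lower on slide 2, against 23.9% and 19.6% of all features. Among these, chosen after their values had been seen, Pparg, a lipid-sensing nuclear receptor of alternative activation, was higher by 3.12 and Il4 lower by -2.17.

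The other alternative activation markers, 22 measured of 25, were called in 0 cases by genotype, with 15 higher, 7 lower and a median of 0.13 (0.55 on slide 1, -0.22 on slide 2). Slc7a2, a transporter of arginine, differed by 0.55 ± 0.48, with 1.69 on slide 1 and -0.59 on slide 2. Ch25h, cholesterol 25-hydroxylase, differed by -0.97 ± 0.95, with 1.51 and -3.44; these had the smallest unadjusted p without a slide term. With the slide as a block that gene was Alox15, a lipoxygenase induced by IL-4 (1.595 ± 0.45, limma adjusted p = 0.402). Between the slides 7 of these 22 genes were called higher and 5 lower on slide 2, near the 23.9% and 19.6% of all features. The chemokines Ccl17 (-5.49) and Ccl24 (-3.11) were among the lower and the lipid-handling genes Cd36 (2.06) and Trem2 (1.97) among the higher ones, all 4 chosen after their values had been seen.

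The other genes of Folr2 resident macrophages were split in direction. All 26 were measured, 12 higher and 14 lower in EP2KO, with 0 called in either fit and a median of -0.11. Vsig4, a complement receptor of resident macrophages, was at 8.94, 2.33, 7.19 and 6.61 on WT 1 to 4 and at 18.7, 22.4, 15.2 and 23.0 on EP2KO 1 to 4. It was higher on all 4 EP2KO arrays than on any WT array, by 1.80 ± 0.41 (adjusted p = 1.00, and 0.285 with the slide as a block). Cbr2, carbonyl reductase 2, ran the other way, at 31.9 to 41.7 in WT and 19.0 to 31.9 in EP2KO, the groups meeting at WT 4 and EP2KO 4, and differed by -0.69 ± 0.20 (adjusted p = 1.00, and 0.401 with the slide as a block), with -1.02 on slide 1 and -0.36 on slide 2. Of the LPS activation genes, 20 measured of 24, 0 were called by genotype with a median of -0.25, and Nos2, the inducible nitric oxide synthase, differed by -0.71 ± 0.25 and Cxcl9, a chemokine induced by interferon gamma, by -1.74 ± 1.37. Between the slides 15 of the 20 were called lower on slide 2 and 0 higher, against 19.6% of all features called lower.

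Markers of some other cell types differed between slides or in their genotype means beside these genes, and their part in the results was not tested. Called lower on slide 2 were 7 of 10 dendritic cell, 9 of 11 T and NK cell and 8 of 10 B cell markers. The same held for 8 of 9 eosinophil and mast cell and 5 of 10 neutrophil markers, against 19.6% of all features. Of the fibroblast and mesothelial markers 1 of 12 was called lower, and of the epithelial ones 0 of 8. In EP2KO 9 of 10 dendritic cell markers, 12 of 12 fibroblast and mesothelial markers, 11 of 11 T and NK cell markers and 9 of 10 B cell markers had lower means, with 0 called. Each marker of these 4 lists that had a probe was well above background on at least 1 array. Over both slides the summed relative signals overlapped between genotypes for each: dendritic cells 28.2 to 49.8 in WT and 29.7 to 48.8 in EP2KO, fibroblasts 26.8 to 149 and 5.19 to 105, T and NK cells 5.20 to 33.1 and 5.15 to 27.3, B cells 13.95 to 104 and 6.28 to 105. Within single slides, with 2 arrays per genotype, some did not overlap, which can easily arise by chance. On slide 2 the fibroblast sums were 135 and 149 in WT against 28.2 and 5.19 in EP2KO, and the B cell sums 13.95 and 17.4 against 6.28 and 9.66. On slide 1 the T and NK cell sums were 33.1 and 30.4 in WT against 27.3 and 16.3 in EP2KO. The dendritic cell sums did not overlap on either slide, in opposite directions. They were 44.2 and 49.8 in WT against 34.9 and 30.6 in EP2KO on slide 1. On slide 2 they were 28.2 and 29.0 in WT against 29.7 and 48.8 in EP2KO. The median difference of the dendritic cell markers was negative on both slides, -0.42 on slide 1 and -0.52 on slide 2. Their sums on slide 2 thus did not follow the typical marker. Without a slide term the smallest unadjusted p values in these lists were those of Cacnb3 (-1.40) and Flt3 (-0.65), Igfbp6 (-1.84) and Dcn (-1.82), Lat (-0.78) and Bcl11b (-1.72), and Jchain (-3.88) and Cd22 (0.22). The fibroblast median was 0.92 on slide 1 and -3.49 on slide 2, where the medians of the 10 genes were -0.18 and -0.29. Neutrophil markers (10 measured, median -0.04, Ltf 0.92, Cxcr2 -1.24), eosinophil and mast cell markers (9, median 1.62, Mcpt4 2.37, Tpsb2 1.62) and epithelial markers (8, median -0.58, Krt20 -4.75, Epcam -1.87) had 0 called as well, and Krt20, Bcl11b and Cxcl9 were well above background on only 2 of 4 EP2KO arrays and Epcam on 3, so that their differences are uncertain in size. Epx, which defines eosinophils, was well above background on 0 arrays. Summed relative signals were 59.1 to 138 in WT and 60.7 to 115 in EP2KO for neutrophils, 2.20 to 31.1 and 9.61 to 41.5 for eosinophils and mast cells, and 1.24 to 8.37 and 0.775 to 4.02 for epithelium. Within slides the eosinophil and mast cell sums did not overlap, at 31.1 and 17.0 in WT against 41.2 and 41.5 in EP2KO on slide 1, and 2.20 and 5.26 in WT against 9.61 or more in EP2KO on slide 2. Without a slide term Kdr (0.18) and Pdpn (0.56) had the smallest unadjusted p of the endothelial list and Adgre1 (0.33) and Aif1 (-0.76) of the macrophage list. With the slide as a block the lowest limma adjusted p was 0.203 in the endothelial and 0.0767 in the T and NK cell list. Both belonged to genes not named here.

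**Figure D5:**
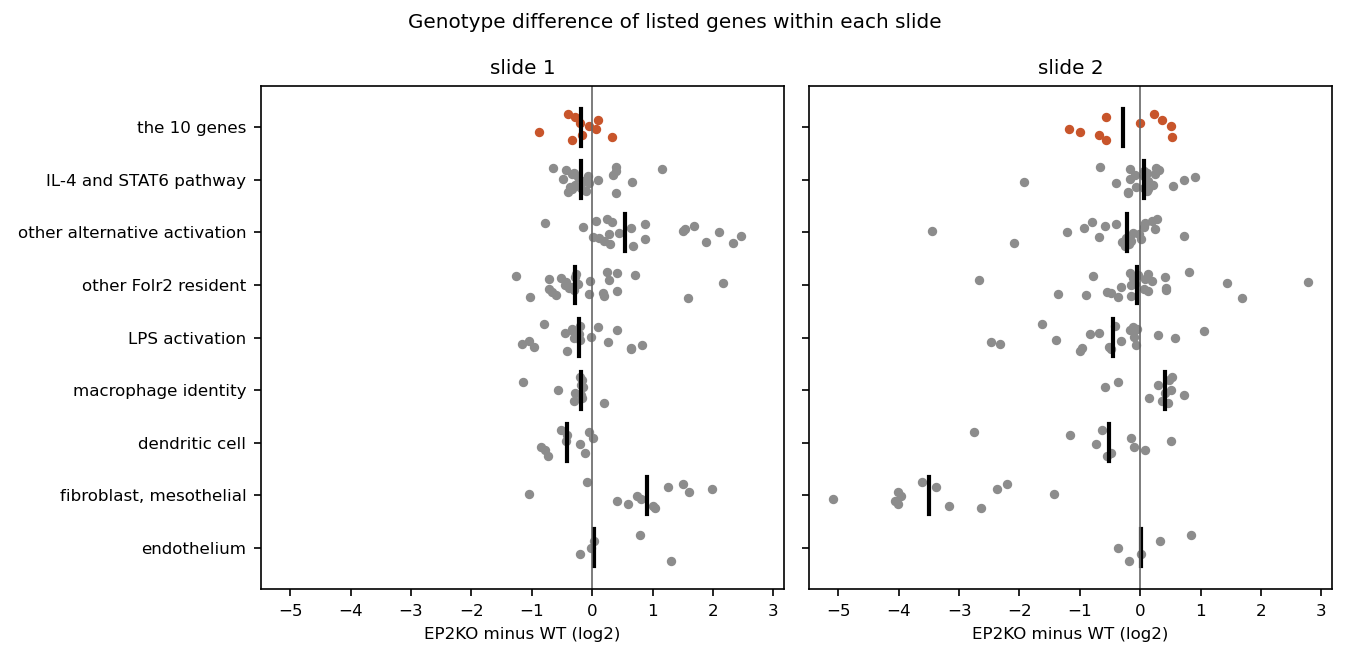
Difference EP2KO minus WT (log2) within slide 1 and within slide 2 for the measured genes of 9 lists; each point is a gene and each black bar the list's median. The 10 genes have medians of -0.18 and -0.29, and the fibroblast and mesothelial list 0.92 and -3.49.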

How the data were processed

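Members and lists were chosen with earlier results of these data known. Cy3 cRNA from 0.5 µg RNA was put on 1-colour arrays, per the labels' protocols. Spot intensity, linear, is the unit of the deposited scanner files, extracted with Feature Extraction 10.7.1.1 per the file headers (9.1 in the submitters' processing notes); the processed signal is background-corrected, without scaling across arrays. A deposited series table held the same intensity values (largest log2 difference 0).

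From these files log2 of the processed signal minus each array's 75th percentile was taken, without 1377 control spots and outlier-flagged spots; spots of 1 probe were averaged. Probes were named through RefSeq transcripts (GRCm38.p6; 27508 named, 11921 not), while the array design states mm9. Probes had to be well above background throughout at least 1 genotype, and each gene was represented by its brightest such probe, which left 20736 features. Between 25565 and 32156 probes per array passed as well above background, with 0 saturated spots; the number of arrays limits the precision.

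Genotype, slide and interaction tests used limma 3.58.1 under R 4.3.3 (lmFit, eBayes, two-sided, Benjamini-Hochberg over all features, adjusted p 0.05); SE and 95% intervals come from these fits, and single genes were also tested by exact permutation. The fits were tested on simulated data. Named were all 10 genes and, from each other list, up to 4 past the threshold or else the 2 with the smallest unadjusted p. Same-numbered WT and EP2KO arrays shared deviations from group means (r over features 0.74, 0.12, 0.55 and 0.43 for numbers 1 to 4), each such pair also sharing a slide; within slides r was -0.39 and -0.10. By the rule set for pairing the replicate block is given too. Alternatives covered background, scaling, filter, probe choice, blocks, variance model, weights and each array left out; normexp (offset 50) ran on the median spot signal, since the files hold no mean.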

Additional observations from a re-analysis of the deposited data

How the results depend on the processing

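None of the 10 genes passed in the genotype comparison under any of the 30 alternatives each (lowest adjusted p 0.128, Folr2). Folr2 (-1.09 to -0.77), Retnla (-0.66 to -0.23), Mrc1 (-0.78 to -0.08) and Il4ra (-0.67 to -0.20) kept their direction throughout. The direction turned for Chil3 without WT 3 (-0.29, and -0.41 with the slide as a block; -0.29 to 1.08 without 1 array), for Lyve1 (0.062) and Clec10a (-0.059) within slide 1, and for Mgl2 with median scaling (0.027) and without WT 2 (-0.24 to 0.038 without 1 array). It turned for Pdcd1lg2 with normexp (-0.25) and without WT 3 (-0.31), WT 4 (-0.06), EP2KO 1 (-0.23) or EP2KO 2 (-0.05), with -0.31 to 0.72 in all. For Klf4 it turned with median scaling (0.049), within slide 2 (0.22), with array weights (0.015), without WT 1 (0.13), WT 2 (0.24), EP2KO 3 (0.04) or EP2KO 4 (0.13), with -0.42 to 0.24 without 1 array, and with the slide as a block without WT 2 (0.046) or EP2KO 1 (0.072). Median scaling moved the median of all features from -0.02 to 0.11. Between the slides Chil3 turned without WT 2 (0.12), WT 3 (0.75), EP2KO 2 (0.03) or EP2KO 4 (0.12), with -0.89 to 0.75 in all, and Il4ra with the mean of its opposed probes (0.057). For the other values that turned, the cause was not tested.

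Over all features the genotype count was 2, and 4 with the slide as a fixed or random block, 0 with limma and the replicate block (1133 at an unadjusted p under 0.05), 0 within slide 1 (2538 unadjusted) and 232 within slide 2; leaving out 1 array gave 0 to 4 (343 to 555 unadjusted). With the replicate block, as without it, 0 of the 10 genes were called by genotype. The slide count was 9023 (3538 with normexp, 6556 to 9654 without 1 array). The interaction count was 3, with 0 under normexp (2165 unadjusted), 5 with median scaling, 1 with no filter and 0 to 1310 without 1 array (1310 without WT 1). The exact permutation test found 1 gene under 0.05, Folr2, 0 with normexp, and 0 to 1 without 1 array: 0 without any EP2KO array, 1 without any WT array. It cannot reach 0.05 within a slide. Leaving out arrays in the slide and interaction fits, every slide value per gene and the slide-blocked fits without 1 array were chosen after seeing the data.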
